A study of Mus musculus with 18 samples.

Results

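The genes described here are 10 enzyme genes of fatty acid synthesis, elongation and desaturation, measured in the frontal cortex of 3 genotypes of mice. They are Acly, Me1, Acaca, Acacb, Fasn, Elovl6, Scd1, Scd2, Fads1 and Fads2, and they were taken by name from a table of 55487 genes. All 10 had enough counts to be tested, among 17414 tested genes. RNA came from 6 WT, 6 APP/PS1 and 6 APP/PS1/FTnKO mice at an age of 9 to 10 months, and each genotype had 3 females and 3 males. APP/PS1 mice carry transgenes for a mutant amyloid precursor protein and a mutant presenilin and are a model of Alzheimer's disease. In APP/PS1/FTnKO mice the gene of the β subunit of farnesyltransferase (Fntb), the enzyme that attaches a farnesyl lipid to proteins, is in addition deleted by a Cre recombinase under the CamKIIα promoter, which is active in forebrain neurons after birth. By the study's methods the WT and APP/PS1 mice carry the same floxed Fntb alleles without Cre and are littermates, while the deposited record calls the WT mice C57BL/6J, so that the background of the WT mice is not settled. No Cre-positive mouse without the APP/PS1 transgenes was among the samples. All tissue was bulk cortex, and a lower level in a subset of cells and a smaller number of such cells cannot be told apart.

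Total counts were 15925432 to 21030935 per mouse. WT mouse 19622 is given apart throughout, because its library stood apart from the other 17: its summed level of 8 cerebellar genes was 2887 CPM (counts scaled to library size), against 24.5 to 77.0 in the others, and that of 8 markers of cortical excitatory neurons was 799, against 4197 to 7332. Means and tests are therefore over 5 WT, 6 APP/PS1 and 6 APP/PS1/FTnKO mice. The CPM of Fntb ran from 14.1 to 32.2 over these WT mice, from 14.2 to 32.1 over the APP/PS1 and from 7.84 to 14.7 over the APP/PS1/FTnKO mice, with a log2 fold change (log2FC) of -0.77 (SE 0.26, FDR = 0.251, edgeR) between the latter groups. App, whose sequence the transgene shares, rose from WT to APP/PS1 mice by 0.89 on the log2 scale (SE 0.095, FDR = 6.7e-05, edgeR).

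Fatty acids are built in the cytosol from acetyl-CoA, which ATP citrate lyase (Acly) makes from citrate, with NADPH that malic enzyme (Me1) helps to supply. Acetyl-CoA carboxylase (Acaca, and its paralog Acacb, whose product is tied to the control of fatty acid oxidation at mitochondria) makes malonyl-CoA, and fatty acid synthase (Fasn) joins these units into palmitate. Elovl6 lengthens palmitate, the stearoyl-CoA desaturases (Scd1, Scd2) put in the first double bond, and Fads2 and Fads1 desaturate the dietary polyunsaturated fatty acids that brain membranes hold in large amounts. In the brain these enzymes serve myelin and membrane synthesis, and several are targets of the sterol regulatory element-binding proteins (SREBPs), which the mTORC1 kinase complex can activate. The study asked whether neuronal loss of farnesyltransferase changes the cortical transcriptome of APP/PS1 mice. Acaca, Me1 and Fads2 are genes the study itself named on these mice, so that their values here are not independent evidence of a direction.

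Set against gene length, Scd2 was the most abundant of the 10 transcripts, with 302.5 ± 19.6 CPM per kilobase of exons (SD, n = 17), and all 17 mice had more Scd2 than any mouse had of any other enzyme. Fads1 followed with 55.3 ± 6.46, Fads2 with 51.5 ± 7.14, Scd1 with 45.1 ± 7.92, Acly with 41.6 ± 3.51 and Fasn with 32.2 ± 3.22 CPM per kilobase. The ranges of neighbours in this middle group overlapped. Within a mouse, Acly lay above Fasn in 17 of 17, while Fads1 lay above Fads2 in 13, Fads2 above Scd1 in 13 and Scd1 above Acly in 11, so that the order of these last 4 varied between mice. Me1 (13.9 ± 1.60), Elovl6 (8.27 ± 0.896), Acaca (4.72 ± 0.400) and Acacb (1.13 ± 0.228 CPM per kilobase) came next, and with this length the ranges of these 4 did not overlap one another. With the longest transcript as the length, Acly and Scd1 changed places, Fads1 (76.9 ± 8.98) lay above Fads2 (53.9 ± 7.47) in 17 of 17 mice, and Acaca (8.47 ± 0.718) overlapped with Elovl6 (8.93 ± 0.968 CPM per kilobase), which was higher in 14 of 17. Of the paralog pairs, Scd2 had 6.84 ± 0.861 times the per-kilobase level of Scd1, and Acaca 4.40 ± 1.19 times that of Acacb. The longest transcripts gave ratios of 6.77 ± 0.852 and 7.20 ± 1.95, so that the second depends on the length used.

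**Figure D1:**
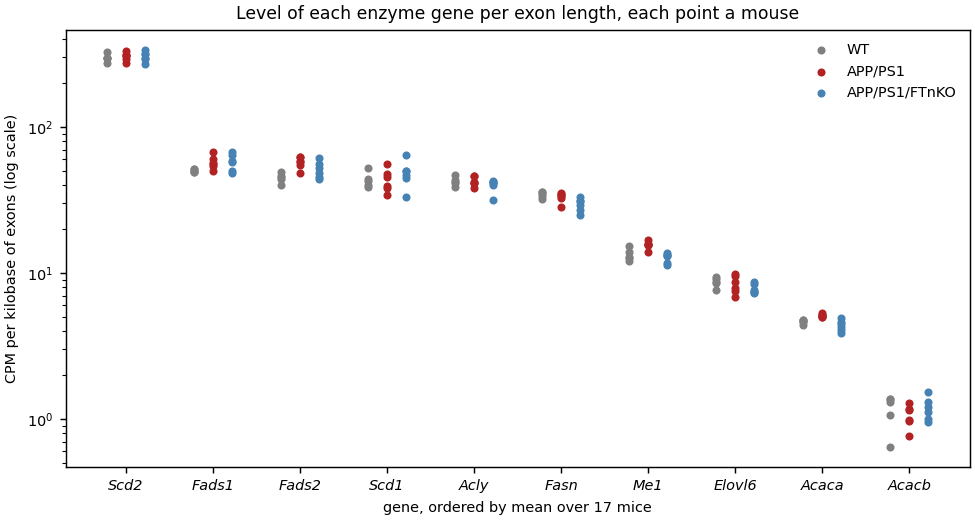
The CPM per kilobase of union exons is plotted on a log axis for each of 17 mice and 10 genes, in the order of the mean, with the genotypes in 3 colors. Scd2 lies alone at the top at a mean of 302.5, the genes from Fads1 to Fasn overlap, and Acacb lies lowest at a mean of 1.13.

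In the comparison of APP/PS1 with WT mice, which asks how the disease model differs from its controls, Fads2 rose by 28.1% and was the 1 of 10 enzyme genes to pass the threshold. Over all genes, 1.50% passed it. The genes were tested with edgeR's quasi-likelihood test over all tested genes, with sex as a further term, and called at a false discovery rate (FDR) under 0.05. Of the 10, 5 were higher and 5 were lower in APP/PS1 mice, the median log2FC was 0.016 against -0.0023 over all genes, and the 4 with an unadjusted p under 0.05 (Fads2, Me1, Acaca and Fads1) were all higher. Over all genes 14.0% had such a p, and 7.91% were higher with such a p.

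Fads2 encodes the Δ6 desaturase, the rate-limiting step of polyunsaturated fatty acid synthesis, and lies on chromosome 19 of GRCm38 from 10062765 to 10101746 on the minus strand. Its levels in the 5 WT mice were 131, 146, 150, 151 and 163 normalized CPM. In the 6 APP/PS1 mice they ran from 160 over a median of 191 to 205, and in the 6 APP/PS1/FTnKO mice from 144 over 166 to 202. Thus 5 of 6 APP/PS1 mice lay above all WT mice, and the APP/PS1/FTnKO mice spread over nearly the whole range of both. The means were 148 ± 11.3 (SD, n = 5), 189 ± 16.8 (n = 6) and 169 ± 22.1 (n = 6) CPM. The log2FC of Fads2 between APP/PS1 and WT mice was 0.36 (SE 0.084, FDR = 0.0404, edgeR) and the FDR lay close to the threshold. With each mouse left out in turn the log2FC stayed between 0.32 and 0.42, and the call was lost without any of 10 of the 17 mice, with a highest FDR of 0.156 without WT mouse 19053 (the others were WT 19718, 19721 and 18944, APP/PS1 16975, 19553, 19554 and 19723, and APP/PS1/FTnKO 18943 and 19394). Once RIN, the RNA integrity number, entered the fit, the log2FC was 0.21 (FDR = 0.344, edgeR), and in the 14 mice whose RIN reached 8 it was 0.31 (FDR = 0.161, edgeR). DESeq2's Wald test gave an FDR of 0.0034 and called 1 of the 10 genes, Fads2, where 2.69% of all genes passed, while limma-voom gave a log2FC of 0.35 and an FDR of 0.0524.

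The RIN ran from 8.5 to 8.8 over the WT mice, from 7.7 to 8.7 over the APP/PS1 and from 7.6 to 8.7 over the APP/PS1/FTnKO mice, and the desaturases varied with it. With genotype and sex means removed, the Pearson r with RIN over 17 mice was -0.83 for Scd1 (rho -0.84), -0.74 for Scd2 (rho -0.76), -0.74 for Fads2 (rho -0.69) and -0.64 for Fads1 (rho -0.59). All of these r passed adjustment over 50 relations computed between the 10 genes and RIN or 4 marker sums (two-sided permutation tests, raw p of 2e-05, 0.00054, 0.00067 and 0.00513, adjusted p of 0.0005, 0.00335, 0.00335 and 0.0183, and adjusted p of rho of 0.0007, 0.00339, 0.0124 and 0.0392). Without the 2 mice farthest from the median RIN, r was -0.74, -0.75, -0.65 and -0.50. The r of Acaca and Me1 with RIN were 0.21 and 0.20 (adjusted permutation p of 0.48 and 0.512). The APP/PS1 mouse with the lowest RIN of its genotype, 16975, had the highest Fads1 and Fads2 and the lowest Elovl6 of the 17, and the APP/PS1/FTnKO mouse with the lowest, 16974, had the highest Scd1 and Scd2.

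**Figure D2:**
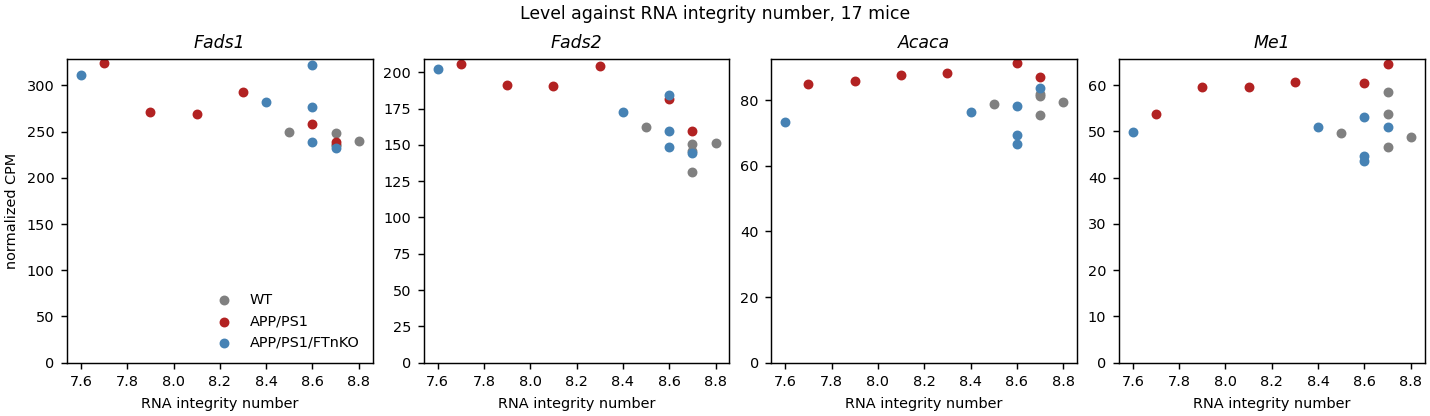
The normalized CPM of Fads1, Fads2, Acaca and Me1 is plotted against the RNA integrity number of each of 17 mice, in colors by genotype. Fads1 and Fads2 are lower in mice with a higher number, the 5 WT mice lie between 8.5 and 8.8, and the 6 APP/PS1 mice have the higher Acaca across their range from 7.7 to 8.7.

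Fads1, the Δ5 desaturase gene, lies 81141 bases from Fads2 on chromosome 19 (10182888 to 10196877, plus strand). It had 235, 235, 240, 248 and 249 CPM in the WT mice, 239 to 324 in the APP/PS1 mice (median 270) and 233 to 322, with a median of 279, in the APP/PS1/FTnKO mice. Those of WT genotype were close together, and 5 of 6 APP/PS1 and 4 of 6 APP/PS1/FTnKO mice lay above them all. The log2FC was 0.20 (SE 0.084) in both transgenic genotypes against WT, with an FDR of 0.303 for APP/PS1 and 0.163 for APP/PS1/FTnKO mice (edgeR), and neither passed. With RIN as a covariate the log2FC between APP/PS1 and WT mice was 0.07 (FDR = 0.881, edgeR). Per kilobase of exons, Fads1 and Fads2 stood at a ratio of 1.12 ± 0.0671 in WT, 0.999 ± 0.0451 in APP/PS1 and 1.13 ± 0.0551 in APP/PS1/FTnKO mice.

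The window of 250 bases upstream of the RefSeq start of Fads2 (chr19:10101504-10101753, minus strand, GRCm38.p6) is shown because Fads2 is the gene that passed the test. It holds GGGCGG, a GC box, and none of TCACNCCAC, TCACCC or CCAAT, the last a site of nuclear factor Y, and no match says only that these letters are not in this window.

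Fads2 upstream: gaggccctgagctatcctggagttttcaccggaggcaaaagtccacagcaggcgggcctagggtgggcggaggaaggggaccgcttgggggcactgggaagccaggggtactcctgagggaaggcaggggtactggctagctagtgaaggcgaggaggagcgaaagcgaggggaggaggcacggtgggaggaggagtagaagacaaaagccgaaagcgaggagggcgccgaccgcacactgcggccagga

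Me1 makes NADPH from malate and lies on chromosome 9 (86581371 to 86695953, minus strand). It had 46.6, 48.7, 49.7, 53.7 and 58.6 CPM in WT mice, 53.8 to 64.6 in APP/PS1 mice (median 60.1) and 43.6 to 53.0, with a median of 50.4, in APP/PS1/FTnKO mice. APP/PS1 mice were the high group, 5 of 6 above all WT mice, and all 6 APP/PS1/FTnKO mice lay below all 6 APP/PS1 mice. The log2FC between APP/PS1 and WT mice was 0.22 (SE 0.068, FDR = 0.147, edgeR), which did not pass.

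Acaca makes the malonyl-CoA for synthesis and lies on chromosome 11 (84129672 to 84401651, plus strand). It had 75.6, 78.9, 79.5, 81.4 and 81.9 CPM in WT mice, 84.9 to 91.3 in APP/PS1 mice (median 87.3) and 66.6 to 83.6, with a median of 74.9, in APP/PS1/FTnKO mice. All 6 APP/PS1 mice lay above all WT and all APP/PS1/FTnKO mice, a spacing that 1.71% of tested genes showed in this direction between APP/PS1 and WT mice. The log2FC between APP/PS1 and WT mice was 0.14 (SE 0.052, FDR = 0.247, edgeR) and did not pass the threshold. The other 6 enzyme genes had log2FC values of -0.13 to 0.03 between APP/PS1 and WT mice, with the widest 95% interval, from -0.51 to 0.24, for the weakly expressed Acacb.

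**Figure D3:**
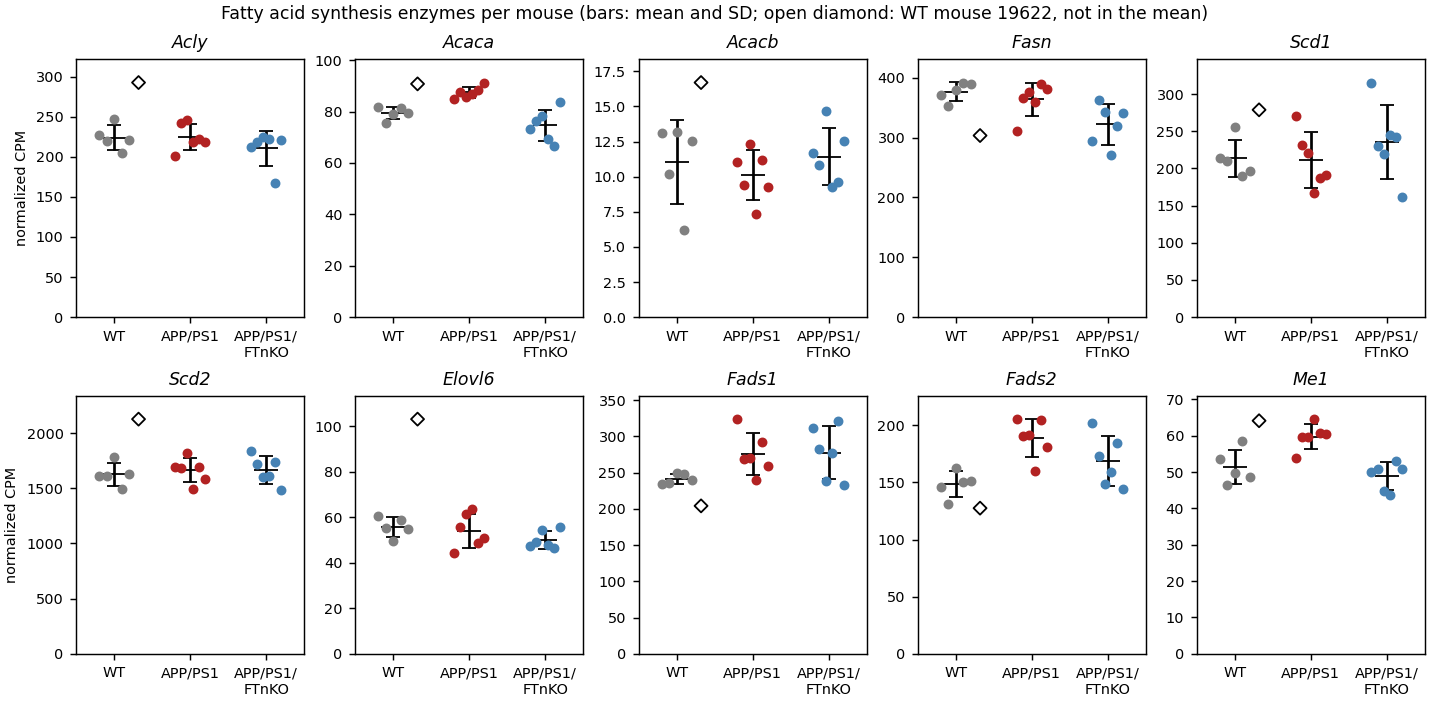
Each panel gives the normalized CPM of a gene in every mouse by genotype on an axis from 0, with the mean and SD as bars (n = 5 WT, 6 APP/PS1 and 6 APP/PS1/FTnKO mice) and WT mouse 19622 as an open diamond outside the mean. APP/PS1 mice lie highest for Acaca (84.9 to 91.3), Me1 and Fads2 have most APP/PS1 mice above WT, and the diamond lies far from the other WT mice for Elovl6.

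The comparison of APP/PS1/FTnKO with APP/PS1 mice asks what the loss of neuronal farnesyltransferase changes on the disease background. The difference was -14.7% for Acaca and -18.3% for Me1, and both missed the threshold in edgeR. Of the 10 genes, 0 passed it, against 0.327% of all genes. There were 3 with an unadjusted p under 0.05 (Acaca, Me1 and Fasn), all lower, where 5.69% of all genes were lower with such a p. By DESeq2's Wald test, the tool of the study, 2 of the 10 fell (Acaca with an FDR of 0.00253 and Me1 with 0.0041), where 1.45% of all genes passed. The median log2FC of the 10 was -0.10, against -0.0016 over all genes, with 4 higher and 6 lower.

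For Acaca the log2FC was -0.23 (SE 0.050, FDR = 0.0567, edgeR), and for Me1 it was -0.29 (SE 0.064, FDR = 0.06, edgeR). In each of these genes all 6 APP/PS1/FTnKO mice lay below all 6 APP/PS1 mice, as was the case for 0.373% of tested genes. The 2 values lay close to the threshold, and small changes in the fit moved them across it. Acaca passed without APP/PS1/FTnKO mouse 19722 (FDR = 0.0299, edgeR) and Me1 without APP/PS1 mouse 16975 (FDR = 0.0295, edgeR). With RIN as a covariate both fell, Acaca by 0.24 and Me1 by 0.30 on the log2 scale (FDR = 0.0274 and 0.0312, edgeR, with 1.50% of all genes called in that fit). In the 14 mice whose RIN reached 8 their log2FC values were -0.24 and -0.33 and the FDRs 0.191 and 0.147 (edgeR). With WT mouse 19622 in the fit the FDRs were 0.305 and 0.413 and the log2FC values -0.23 and -0.29.

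Both genes share sequence with processed pseudogenes that the table lists as genes of their own, and Me1 also with Gm48795, a noncoding RNA gene that overlaps the pseudogene Gm7049 on the other strand. Of the 150-base stretches of Acaca transcripts, 18.4% occur in Gm5182, which had 111 to 322 counts per mouse or 14.7% of the Acaca counts. Of those of Me1, 8.16% occur in Gm7049, Gm48795 or Gm7329. Gm7049 had between 2 and 177 counts per mouse, and the mouse with 177, APP/PS1/FTnKO 19394, was the one with the lowest Me1. How the authors' counting shared reads between such copies was not stated in the sources used here. With the counts of these 4 genes added to Acaca and Me1, the log2FC of Me1 was 0.23 between APP/PS1 and WT mice (FDR = 0.0253, edgeR) and -0.29 in APP/PS1/FTnKO against APP/PS1 mice (FDR = 0.0162, edgeR), so that Me1 then passed in both comparisons, where 1.52% and 0.333% of all genes passed. That of Acaca was 0.09 (FDR = 0.487) and -0.21 (FDR = 0.0987) in the same fit. The other 8 genes shared under 1% of such stretches with any other gene.

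Fasn, the synthase itself, lies on chromosome 11 (120805846 to 120824547, minus strand) and had 353, 371, 379, 390 and 392 CPM in WT mice. It had 312 to 389 in APP/PS1 mice (median 371) and 272 to 363, with a median of 330, in APP/PS1/FTnKO mice. APP/PS1 and WT mice overlapped, and 5 of 6 APP/PS1/FTnKO mice lay below all WT mice. The log2FC of Fasn was -0.18 against APP/PS1 (SE 0.068, FDR = 0.32) and -0.23 against WT mice (SE 0.071, FDR = 0.0756, edgeR). DESeq2 gave FDRs of 0.209 and 0.0298, and edgeR without APP/PS1 mouse 16975 gave 0.0457 against WT mice.

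The windows upstream of Fasn (chr11:120824548-120824797) and Me1 (chr9:86695915-86696164), both on the minus strand of GRCm38.p6, are shown because they are the 2 of 7 enzyme genes with a RefSeq window that hold TCACCC, a partial sterol regulatory element. In capitals stand TCACCC and, for Fasn, CCAAT or its reverse complement ATTGG.

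Fasn upstream: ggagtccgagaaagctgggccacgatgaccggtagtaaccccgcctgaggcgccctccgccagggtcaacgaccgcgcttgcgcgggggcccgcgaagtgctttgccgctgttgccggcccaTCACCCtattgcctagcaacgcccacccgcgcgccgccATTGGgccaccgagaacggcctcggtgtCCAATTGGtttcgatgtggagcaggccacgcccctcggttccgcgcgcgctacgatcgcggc
Me1 upstream: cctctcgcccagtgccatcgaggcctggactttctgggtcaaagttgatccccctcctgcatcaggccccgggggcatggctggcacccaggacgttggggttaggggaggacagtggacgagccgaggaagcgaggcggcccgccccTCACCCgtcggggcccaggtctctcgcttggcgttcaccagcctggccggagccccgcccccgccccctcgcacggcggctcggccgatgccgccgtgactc

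Searched on both strands, with 50 bases after the start included, TCACCC stood in 16.2% of all 32851 RefSeq windows and CCAAT in 37.4% of them and in 4 of the 7 (Acly, Acacb, Fasn and, at a second Me1 start, Me1). The longer TCACNCCAC was in 1.24% of all windows and in 0 of the 7, and CACGTG, an E-box, in 7.15% and in 0. GGGCGG, a GC box, was in 35.7% of all windows and in 3 of the 7 (Acly, Fads2 and Me1). The windows of Acaca and Acacb and the second one of Me1 lie inside the annotated span of the gene. So do nearly all of that of Fads2 and the ends of that of Elovl6 and of the first one of Me1. Such matches describe letters and not binding.

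In the third comparison, of APP/PS1/FTnKO with WT mice, 0 of the 10 genes passed in edgeR, against 3.87% of all genes. With an unadjusted p under 0.05 were 3 of them, Fads1 and Fads2 higher and Fasn lower, where 22.1% of all genes had such a p. DESeq2 called 1 of the 10, Fasn, against 7.59% of all genes. Fads2 had a log2FC of 0.19 (SE 0.084, FDR = 0.19), and Acaca and Me1, the 2 genes called lower than in APP/PS1 mice by DESeq2, had -0.09 (SE 0.052, FDR = 0.309) and -0.07 (SE 0.068, FDR = 0.571, edgeR). The 3 comparisons share mice, so that their values are not independent of each other.

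**Figure D4:**
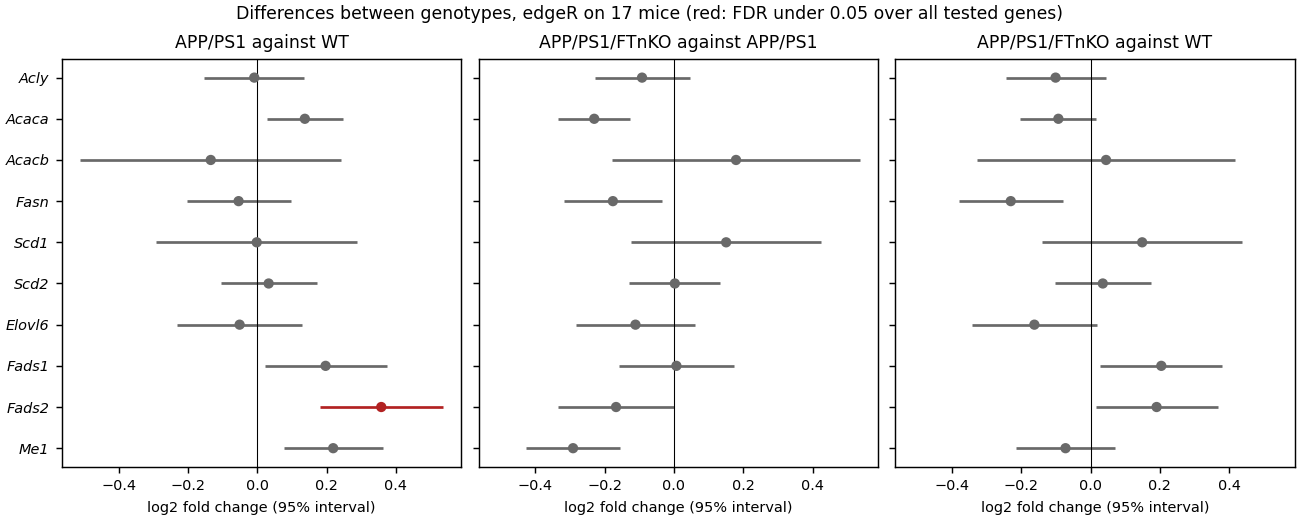
Points are log2FC values and lines their 95% intervals for 10 genes in 3 comparisons (edgeR, 17 mice), red where the FDR over all tested genes is under 0.05. Fads2 in APP/PS1 against WT mice, at 0.36, is the single red point, and the intervals of Acaca, Me1 and Fasn in APP/PS1/FTnKO against APP/PS1 mice lie below 0.

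The remaining enzymes did not pass in any genotype comparison. Acly (chromosome 11, 100476353 to 100528000, minus strand) had 224 ± 15.8, 224 ± 16.6 and 211 ± 21.9 CPM in WT, APP/PS1 and APP/PS1/FTnKO mice. Elovl6 (chromosome 3, 129532355 to 129638495, plus strand) had 55.8 ± 4.31, 54.1 ± 7.55 and 50.1 ± 3.88 CPM, with 4 of 6 APP/PS1/FTnKO mice below all WT mice and a log2FC of -0.16 (SE 0.086, FDR = 0.278, edgeR). Acacb (chromosome 5, 114146535 to 114250761, plus strand), at 6.20 to 14.7 CPM, was the most variable of the 10 within WT mice, with a coefficient of variation of 26.9%. Scd1 and Scd2 lie 87590 bases apart on chromosome 19 (44394455 to 44407879, minus strand, and 44293674 to 44306864, plus strand). Scd1 had 213 ± 25.5, 212 ± 37.2 and 236 ± 49.7 CPM, and its log2FC in APP/PS1/FTnKO against WT mice was 0.15 (SE 0.14, FDR = 0.561, edgeR) and -0.02 with RIN as a covariate. Scd2, the main brain isoform, had 1626 ± 104, 1663 ± 109 and 1666 ± 124 CPM, and its 95% intervals were the narrowest around 0 of the desaturases. They ran from -0.11 to 0.17 between APP/PS1 and WT mice and from -0.13 to 0.13 in APP/PS1/FTnKO against APP/PS1 mice on the log2 scale.

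Between the sexes 0 of the 10 genes passed, against 0.0689% of all genes, and 0 had an unadjusted p under 0.05 in edgeR, where 6.70% of all genes had one, or in DESeq2. The largest difference was that of Acly, with a log2FC of 0.10 from males to females (SE 0.055, FDR = 0.791, edgeR). An interaction of sex with genotype was called by edgeR for 0 of 17414 genes in any comparison, and the smallest unadjusted p of the 10 genes in edgeR was 0.087, for Scd2 in APP/PS1/FTnKO against APP/PS1 mice (0.0529 in DESeq2).

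Among themselves, the 4 desaturase genes varied together from mouse to mouse. Over 17 mice, with genotype and sex means removed, 9 of 45 pairs passed adjustment for Pearson's r and 8 of these also for Spearman's rho (two-sided permutation tests, Benjamini-Hochberg). The permutations shuffled the 17 residuals freely, although the removal of means leaves fewer than 17 independent values. Such p are therefore somewhat too small, and values near the threshold are uncertain. The same holds for the permutation p of the relations with RIN and markers. Fads1 and Fads2 had r = 0.88 (rho 0.84, adjusted permutation p of 0.00045 and 0.0009), Scd1 and Scd2 r = 0.82 (rho 0.78, 0.0009 and 0.00607), and Scd2 and Fads2 r = 0.81 (rho 0.89, 0.0009 and 0.00045). The raw permutation p of r were 1e-05, which is the smallest that 100000 resamples can give, 4e-05 and 6e-05. Without the 2 mice farthest from the median, r was 0.79, 0.69 and 0.71. Elovl6 varied against Fads1 (r = -0.76, rho -0.77, raw permutation p of 0.00043 and 0.00054, adjusted 0.00484 and 0.00607), and without the 2 farthest mice r was -0.61. The core enzymes Acaca and Fasn had r = 0.58 (rho 0.70, raw permutation p of 0.015 and 0.00236, adjusted 0.0625 and 0.0177) and 0.76 without the 2 farthest mice.

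Values that moved with genes of this block are RIN, given above, and markers of glia. The summed level of 10 astrocyte markers had r = 0.88 with Fads1 (rho 0.89), 0.85 with Fads2 (rho 0.90) and 0.76 with Scd2 (rho 0.82), with raw permutation p of 1e-05, 3e-05 and 0.00045 and adjusted p of 0.0005, 0.0005 and 0.00321 over the 50 relations, and r of 0.84, 0.85 and 0.77 without the 2 farthest mice. That of 10 oligodendrocyte markers had r = 0.79 with Scd1 (rho 0.83) and 0.79 with Scd2 (rho 0.73), with raw permutation p of 0.00018 and 0.00028, adjusted p of 0.00225 and 0.00233, and r of 0.79 and 0.80 without the 2 farthest mice. Adjusted permutation p of rho were 0.000333, 0.000333 and 0.000786 for the first 3 and 0.000786 and 0.0074 for the last pair. The astrocyte markers also varied with Scd1 (r = 0.68, rho 0.66, raw permutation p of 0.00249 and 0.00492, adjusted 0.00958 and 0.0154, r = 0.53 without the 2 farthest mice) and against Elovl6 (r = -0.73, rho -0.68, raw permutation p of 0.00087 and 0.00336, adjusted 0.00395 and 0.0124, r = -0.68 without these mice). The 10 microglial markers had r = 0.79 with Fads1 (rho 0.86) and 0.72 with Fads2 (rho 0.84), with raw permutation p of 0.00027 and 0.00116, adjusted p of 0.00233 and 0.00483 for r and 0.000333 and 0.0007 for rho, and r of 0.65 and 0.70 without the 2 farthest mice. The remaining relations of the block with glial markers did not pass for r, namely oligodendrocytes with Fads2 (r = 0.57, adjusted permutation p of 0.0506) and Fads1 (0.49, 0.123), and microglia with Scd1 (0.51, 0.1) and Scd2 (0.49, 0.125, with rho 0.70 and an adjusted p of 0.0107). Outside the block, Acly went against the markers of excitatory neurons (r = -0.72, rho -0.76, raw permutation p of 0.00066 and 0.00053, adjusted 0.00335 and 0.00331, r = -0.62 without the 2 farthest mice), and Elovl6 against those of microglia (r = -0.59, rho -0.68, raw permutation p of 0.013 and 0.00369, adjusted 0.0433 and 0.0124, r = -0.36 without the 2 farthest mice). Acaca and Fasn went against the oligodendrocyte markers for rho only (rho -0.67 and -0.60, raw permutation p of 0.00373 and 0.012, adjusted 0.0124 and 0.0352). Their r were -0.44 and -0.45 (adjusted permutation p of 0.175 for each), and -0.45 and -0.35 without the 2 farthest mice. With RIN removed as well, 5 of 45 pairs passed for r and 0 for rho. Of the block only Fads1 with Fads2 then passed for r (0.78, rho 0.65, raw permutation p of 0.00025 and 0.00612, adjusted 0.0112 and 0.0688, r = 0.62 without the 2 farthest mice).

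**Figure D5:**
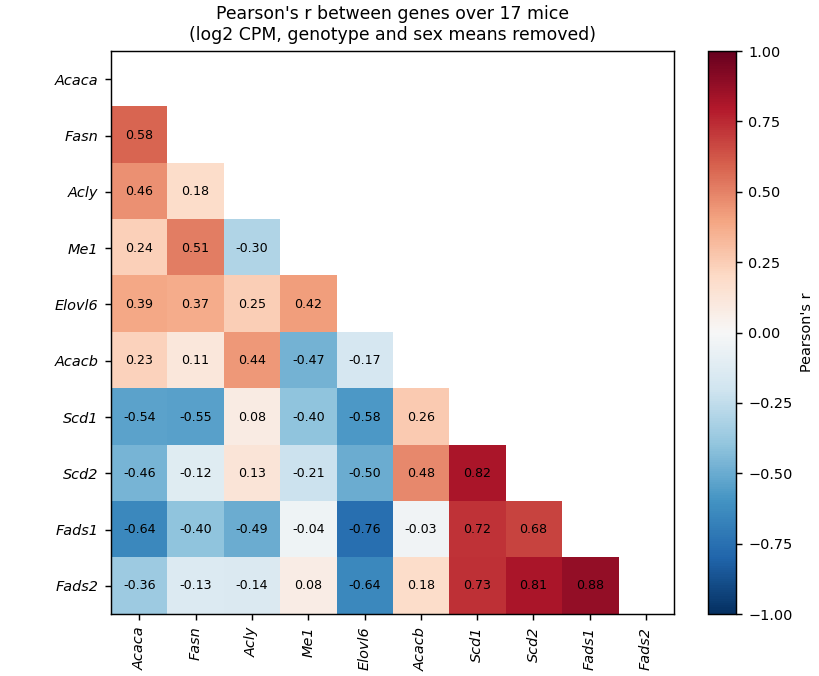
Pearson's r of each of 45 pairs of genes over 17 mice is given by color and number, after genotype and sex means were removed from the log2 CPM. Scd1, Scd2, Fads1 and Fads2 form a red block at the lower right (0.68 to 0.88), and Elovl6 and Acaca stand against Fads1 (-0.76 and -0.64).

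By genotype, the summed astrocyte markers ran from 5025 to 5937 CPM over the WT mice, from 5259 to 7466 over the APP/PS1 and from 5288 to 6933 over the APP/PS1/FTnKO mice, and 1 of the 10, Gfap, was called higher in APP/PS1 mice, where 1.50% of all genes were called. The 10 microglial markers summed to 400 to 453, 560 to 1094 and 449 to 771 CPM, and 6 of 10 passed for APP/PS1 against WT mice, all with the higher level in APP/PS1. Against WT mice, APP/PS1/FTnKO mice had 4 of the 10 microglial markers and Gfap called higher and 1 of 8 excitatory neuron markers, Slc17a7, called lower (log2FC -0.46, FDR = 0.0396, edgeR), where 3.87% of all genes were called. Against APP/PS1 mice edgeR called 0 of the astrocyte, microglial, oligodendrocyte and excitatory neuron markers, with 0.327% of all genes called, and with an unadjusted p under 0.05 5 microglial, 2 neuronal and 1 astrocyte marker were lower, where 5.69% of all genes were. Of the other marker lists, the choroid plexus genes Ttr, Kl and Aqp1 were lower (p of 0.0468, 0.0192 and 0.0195) and the interneuron gene Vip higher (p of 0.0382, edgeR, FDR not under 0.05). DESeq2, in which Acaca and Me1 fell, also called Slc17a7 (edgeR log2FC -0.38, FDR = 0.177 by edgeR and 0.0494 by DESeq2) and Camk2a (-0.42, FDR = 0.196 and 0.0491) lower there, with 1.45% of all genes called. The 10 oligodendrocyte markers summed to 3880 to 5902, 3497 to 7231 and 4928 to 7785 CPM and the 8 of excitatory neurons to 5501 to 7332, 4998 to 7075 and 4197 to 5945. The 6 adipocyte markers were all under 1 CPM. The part of cell composition and RNA integrity in the differences of the enzyme genes was not tested beyond the fits given.

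The 5 genes whose residuals were most like the mean of the 10 enzymes over the 17 mice were Efcab2 (r = 0.87), Adamts3 (0.86), Dglucy (0.85), Foxn2 (0.83) and Itih3 (0.83), a description chosen among all tested genes. The enzymes themselves had r of -0.06 (Elovl6) to 0.70 (Scd2) with that mean.

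Around the 10 enzymes, 8 lists of 110 genes cover the supply of acetyl-CoA and NADPH, the other elongation and desaturation genes, acyl-CoA synthetases and fatty acid binding proteins, glycerolipid synthesis, regulators of lipogenesis, and mitochondrial fatty acid oxidation and synthesis. Of these genes 106 were tested, and between APP/PS1 and WT mice 2 rose and 0 fell in edgeR, near the 1.50% of all genes called. With an unadjusted p under 0.05, 17 were higher and 2 lower, where 7.91% of all genes were higher with such a p, and DESeq2 called 6, where it called 2.69% of all genes. Idh1, the cytosolic isocitrate dehydrogenase and another source of NADPH, had 34.4 ± 1.16 CPM in WT and 43.3 ± 3.23 in APP/PS1 mice (log2FC 0.33, SE 0.063, FDR = 0.00987, edgeR). Mlxipl, the carbohydrate-responsive regulator ChREBP, had 4.14 ± 0.264 and 8.22 ± 1.89 CPM, a log2FC of 0.99 (SE 0.20, FDR = 0.0126, edgeR). In the other lists the smallest p belonged to Dbi (log2FC 0.56, FDR = 0.0586), which binds acyl-CoA, Elovl5 (0.31, FDR = 0.0593), the elongase between Fads2 and Fads1, Gpam (0.37, FDR = 0.0781), Cyb5r3 (0.24, FDR = 0.119), Cpt1c (0.14, FDR = 0.173) and Mecr (0.24, FDR = 0.242, edgeR).

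In APP/PS1/FTnKO against APP/PS1 mice 0 of 106 passed in edgeR, against 0.327% of all genes. With an unadjusted p under 0.05, 3 were higher and 7 lower, close to the 5.69% of all genes that were lower with such a p, and DESeq2 called 1, Idh1, where it called 1.45% of all genes. In all, 45 were higher and 61 lower. The log2FC of Idh1 was -0.22 (SE 0.060, FDR = 0.133 by edgeR and 0.0385 by DESeq2). Srebf2, a regulator of sterol synthesis, had -0.15 (FDR = 0.218), Cyb5b -0.15 (0.218), Fabp3 -0.18 (0.226), Dgat2 -0.22 (0.278), Elovl2 -0.25 (0.285), Oxsm 0.22 (0.339) and Acads -0.26 (0.431, edgeR). Between APP/PS1/FTnKO and WT mice 1 of 106 passed in edgeR, where 3.87% of all genes did, and it rose, Mlxipl at 7.52 ± 2.09 CPM (log2FC 0.86, SE 0.20, FDR = 0.0228, edgeR). With an unadjusted p under 0.05, 11 were higher and 4 lower, where 22.1% of all genes had such a p, and DESeq2 called 3 (Cyb5r3, Dbi and Mlxipl), where it called 7.59% of all genes. Nearest to the threshold in the other lists were Cyb5r3 (0.24, FDR = 0.055), Dbi (0.46, 0.074), Hacd2 (0.20, 0.117), Lpin1 (0.15, 0.136), Tkt (0.13, 0.144), Acadvl (0.15, 0.146) and Mecr (0.23, 0.147, edgeR). By list, the median log2FC in APP/PS1/FTnKO against APP/PS1 mice lay between -0.04 and 0.05.

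WT mouse 19622 had other levels of these enzymes than the other 5 WT mice. Elovl6 was 103 CPM in it, against 49.4 to 60.8, a log2 difference of 0.89 from their mean. Scd2 (2127 CPM), Acly (293) and Acacb (16.7) were also the highest of all 18 mice, while Fads1 (204) and Fads2 (127) were the lowest. Its summed oligodendrocyte markers were 10945 CPM, against 3497 to 7785 in the others, and Scd3, a gene close to Scd1, had 304 counts. With it in the fit, the log2FC of Fads2 for APP/PS1 against WT was 0.39 (FDR = 0.0266, edgeR), and it was again the 1 gene called of 10, where 1.20% of all genes passed.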

How the data were processed

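The authors trimmed the reads of stranded mRNA libraries with Trimmomatic 0.33, checked them with FastQC 0.11.7, aligned them with HISAT2 2.1.0 to GRCm38 and counted them per Ensembl gene with featureCounts. The deposited values are raw counts without normalization. The labels also list mm9. For featureCounts, its version, strandedness, treatment of multi-mapping reads and annotation were not stated in the sources used here. Of 18 columns 0 were unused.

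Genotypes were compared on the counts by the quasi-likelihood test of edgeR 4.0.16 in R 4.3.3 (TMM scaling, genes kept by filterByExpr at a minimum of 10, genotype and sex as additive terms, 17 mice) and Benjamini-Hochberg adjustment over 17414 genes at 0.05. The study left out 1 WT mouse without naming it; mouse 19622 was left out here. As alternatives served limma-voom (limma 3.58.1), DESeq2 1.42.0, RLE, other filters, 18 mice, RIN, no sex term, fewer genotypes and each mouse left out. The fits with a RIN of at least 8 and with pseudogene counts, the removal of RIN from the correlations and the relations with RIN and markers were added after the data had been seen. The additive genotype fits of edgeR, DESeq2 and limma-voom and the correlations between genes were tested on simulated data. CPM are on TMM library sizes, and log2 CPM has a prior count of 0.5. Counting error is small at most of the 124 to 42797 counts per enzyme gene and mouse. It is largest for Acacb (124 to 336 counts) and adds to the spread of that gene between mice. Replicates are separate mice.

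The enzyme genes and lists were chosen with earlier results of these data known. Named are the 10 enzymes, in each pathway list the called genes or else the smallest p, the 5 genes most like the enzymes, and Fntb and App. Gm5182, Gm7049, Gm48795, Gm7329 and Scd3 are named beside results they touch and were chosen after their values were seen. So were the markers Gfap, Slc17a7, Camk2a, Ttr, Kl, Aqp1 and Vip, which were picked from the marker lists by their p or FDR. Positions and lengths are from GENCODE M21 (GRCm38) and upstream windows from RefSeq (GRCm38.p6), which matched 7 of the 10.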

Additional observations from a re-analysis of the deposited data

Results flagged for a closer look

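Each enzyme gene was checked for a mouse far from the others of its genotype (Dixon's gap over range, 95% critical value), in 40 groups with WT taken with and without 19622. Chance gives such a value in about 1 in 20 groups, and 3 were found. APP/PS1/FTnKO mouse 19720 had 167 CPM of Acly, against 212 to 224 in the other 5. WT mouse 19622 had 103 CPM of Elovl6, against 49.4 to 60.8, and 204 CPM of Fads1, against 235 to 249 in the other 5 WT mice. No sex by genotype interaction passed for any of the 10 genes.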

How the results depend on the processing

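Of the 10 enzyme genes, 1 passed between APP/PS1 and WT mice, and this count became 0 with limma-voom (1.09% of all genes called), with RIN as a covariate (0.482%) and in mice with a RIN of at least 8 (0.689%), 2 with pseudogene counts added (1.52%), and 0 to 1 with each mouse left out. In APP/PS1/FTnKO against APP/PS1 mice it was 0 and became 2 with DESeq2 and with RIN as a covariate, 1 without a filter (0.314% of all genes called), with a minimum count of 50 (0.53%), without the sex term (0.322%), with DESeq2 on 18 mice (0.214%) and with pseudogene counts added (0.333%), and 0 to 1 with each mouse left out. Between APP/PS1/FTnKO and WT mice it was 0, and 1 with DESeq2 and 0 to 1 with each mouse left out. Between the sexes it was 0 in each of these fits that holds a sex term for all genotypes. With each mouse left out, 0.706% to 2.68% of all genes were called between APP/PS1 and WT mice. In APP/PS1/FTnKO mice the shares were 0.0578% to 0.467% against APP/PS1 and 1.17% to 5.69% against WT mice. The number of pairs that passed for r was 9 and, with RIN removed, 5, while 0 then passed for rho. Fads1 with Fads2, Elovl6 with Fads1 and Acaca with Fads1 were in both sets. Acly with Fads1 and Acaca with Scd1 passed only with RIN removed. Except for pseudogene counts and settings that change the samples, genes or tool, the cause was not tested. No paired analysis was possible because each mouse has a number of its own.

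The log2 fold changes that changed sign include that of Scd1 for APP/PS1/FTnKO against WT, from 0.15 to -0.020 with RIN as a covariate. With 18 mice in edgeR and DESeq2 they were -0.060 and -0.062 (Acacb) and -0.035 and -0.038 (Scd2) for APP/PS1/FTnKO against WT, -0.038 and -0.040 (Scd2) for APP/PS1 against WT, and -0.017 and -0.019 (Fasn) and 0.015 and 0.013 (Me1) between the sexes. With RIN as a covariate they were 0.026 (Elovl6), 0.0059 (Fasn) and -0.067 (Scd2) for APP/PS1 against WT and -0.023 (Acacb) and -0.022 (Scd2) for APP/PS1/FTnKO against WT. With a RIN of at least 8 they were -0.00981 (Scd2, APP/PS1 against WT) and, between the sexes, -0.00297 (Elovl6), -0.035 (Fasn) and 0.016 (Scd1). For APP/PS1 against WT, Acly was 0.0041 without the sex term and Scd1 0.00053 without a filter and 0.0049 with a minimum count of 50. Scd2 between the sexes was -0.0029 with DESeq2 and RLE and -0.0015 without a filter. With each mouse left out, the ranges that crossed 0 were -0.0082 to 0.033 (Acaca), -0.011 to 0.054 (Fasn) and -0.023 to 0.024 (Scd2) between the sexes, -0.034 to 0.040 (Acly), -0.12 to 0.0023 (Elovl6) and -0.085 to 0.074 (Scd1) for APP/PS1 against WT, -0.040 to 0.056 (Fads1) and -0.029 to 0.037 (Scd2) in APP/PS1/FTnKO relative to APP/PS1, and -0.10 to 0.13 (Acacb) for APP/PS1/FTnKO against WT.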
